A study of Mus musculus with 15 samples.

Results

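The Sprouty and Spred genes of the mouse, Spry1 to Spry4 and Spred1 to Spred3, were read from 22 of the 45101 probe sets on each array. A probe set is a group of short oligonucleotides that together report 1 transcript. The 22 are all those that the platform annotation names for these 7 genes, out of 18194 genes with a probe set of their own. Gene expression had been measured in cultures enriched for spermatogonial stem cells, from which sperm production is renewed, set up from C57BL/6 male mice aged 6 days. Such cells need GDNF (glial cell line-derived neurotrophic factor), which acts through the receptor tyrosine kinase RET and the co-receptor GFRalpha1. The comparisons ask which transcripts move when GDNF and soluble GFRalpha1 are taken away and when they are given back.

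There were 5 groups of 3 arrays, 15 in all. In withdrawal cultures GDNF and GFRalpha1 were left out for 18 h. Replacement cultures had the same 18 h and then both factors again for 2, 4 or 8 h. Maintained cultures were kept throughout in serum-free defined medium with GDNF, GFRalpha1 and bFGF (basic fibroblast growth factor). The labels name bFGF for the maintained cultures alone, so whether the other groups had it is not stated. No label describes a longer withdrawal, or a mock treatment. What the returned factors did in the replacement groups thus cannot be told apart from the effect of handling or of extra hours in culture. Whether the replicates of a group came from separate cultures is not stated, so the p-values measure the spread between these arrays, which may be technical.

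Sprouty and Spred proteins are inhibitors of the RAS-ERK pathway downstream of receptor tyrosine kinases. Many of their genes are themselves transcribed when that pathway is active, which makes them negative feedback regulators. Sprouty proteins act through partners such as the adaptor GRB2 and the ubiquitin ligase CBL, while Spred proteins bring neurofibromin, a GTPase-activating protein that switches RAS off, to the membrane. In the mouse kidney, Spry1 restrains RET signalling in response to GDNF.

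Values are MAS5 signal, a brightness in arbitrary units. Judged by the values, each array had been scaled to a trimmed mean of about 150. Differences are on the scale of log2 of signal plus 16, on which folds of dim probe sets are understated, and are given with their standard error (SE) and a p-value adjusted over all 27022 probe sets tested. A probe set was called at an adjusted p under 0.05 in limma. Levels were not compared between probe sets, whose brightness depends on their oligonucleotides. Of the 22, 17 passed the filter on dim signal, which stood for 6 genes, and the probe set of Spry3 did not. With 3 arrays a group the precision is limited: the median SE of a log2 difference was 0.21 over all tested probe sets. Pearson's r between arrays, over the tested probe sets, lay between 0.904 and 0.976. The ratio of 3′ to 5′ signal of beta-actin, a sign of RNA quality, was 2.77 on the array of withdrawal replicate 3 and 1.10 to 1.75 on the other arrays. Markers of germ cells were all measured (10 of 10), with a summed signal of 15724 to 17706 in withdrawal cultures, 17778 to 18486 at 2 h, 17162 to 18382 at 4 h and 15878 to 17440 at 8 h of replacement, and 17279 to 19265 in maintained cultures. Every 2 h sum was above every withdrawal sum. On withdrawal Zbtb16 (log2 0.77) was called higher and Gfra1 (-0.87), Epcam (-1.08) and Itga6 (-0.84) lower. Of all genes 2.87% were called higher and 2.79% lower. None of the 10 was called at 2 h or 4 h over withdrawal, and 1 was called higher at 8 h. The part of these shifts in the results was not tested. In bulk RNA of this kind, fewer cells of a type and less RNA per cell cannot be told apart.

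The sequence just before the start site is shown first, for members that were called lower on withdrawal and had a matched promoter. RefSeq promoters, on the mouse build GRCm38.p6, were matched by symbol for 5 of the 7 genes. None was matched for Spry3 or Spry4, and Spred3 was matched but is not printed. The 250 bases before the start are printed for Spry1, Spry2, Spred1 and Spred2. They lie at chr3:37639697-37639946 (plus strand) for Spry1, chr14:105896820-105897069 (minus strand) for Spry2, chr2:117120821-117121070 (plus strand) for Spred1 and chr11:19924192-19924441 (plus strand) for Spred2. Each is written 5′ to 3′ along its gene, and capitals mark GGAA or its complement TTCC, the core that ETS transcription factors bind, and in Spred2 the letters ACGTCA, which read TGACGT on the other strand.
Spry1: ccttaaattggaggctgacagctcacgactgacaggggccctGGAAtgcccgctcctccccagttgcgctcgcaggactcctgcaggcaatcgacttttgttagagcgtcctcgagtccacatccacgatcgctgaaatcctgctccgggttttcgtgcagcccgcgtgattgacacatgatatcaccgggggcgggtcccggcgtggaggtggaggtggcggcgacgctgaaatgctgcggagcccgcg
Spry2: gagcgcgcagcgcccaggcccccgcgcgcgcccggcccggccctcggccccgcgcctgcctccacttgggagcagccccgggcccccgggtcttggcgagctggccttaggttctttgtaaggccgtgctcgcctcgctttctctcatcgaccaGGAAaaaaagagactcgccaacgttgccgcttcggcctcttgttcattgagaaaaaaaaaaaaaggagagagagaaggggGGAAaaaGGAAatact
Spred1: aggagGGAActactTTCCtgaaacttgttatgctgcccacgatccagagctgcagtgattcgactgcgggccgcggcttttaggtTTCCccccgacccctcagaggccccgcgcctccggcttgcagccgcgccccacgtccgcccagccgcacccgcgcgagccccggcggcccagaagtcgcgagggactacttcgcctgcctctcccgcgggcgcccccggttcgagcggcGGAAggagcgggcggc
Spred2: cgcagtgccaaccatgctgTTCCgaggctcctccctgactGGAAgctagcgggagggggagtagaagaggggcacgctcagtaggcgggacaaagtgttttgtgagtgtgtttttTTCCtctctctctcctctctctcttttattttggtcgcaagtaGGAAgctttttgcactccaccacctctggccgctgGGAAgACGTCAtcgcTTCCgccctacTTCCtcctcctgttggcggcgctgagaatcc

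On either strand, GGAA occurred 1 time in the Spry1 window, 3 times in Spry2, 4 times in Spred1 and 7 times in Spred2. These short letters are common: 93.4% of 32851 promoter windows of the same length held GGAA, with a median of 3 matches. The longer ETS site CCGGAA, which contains GGAA, was in none of the 4 windows and in 12% of all promoters. The AP-1 site TGANTCA and the EGR site GCGNGGGCG were also in none of the 4, against 6.75% and 4.7% of all promoters. The site TGACGT, part of the element that CREB-type factors bind, was found 1 time, in Spred2 on the minus strand 52 bases before the start, and in 6.47% of all promoters. The share of G and C was 62.4% in the Spry1 and Spry2 windows, 70.8% in Spred1 and 56% in Spred2, against a median of 52.4% over all promoters. A match is a description of letters and not of a bound site.

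After 18 h of withdrawal 5 of the 6 measured genes were called lower than in maintained cultures by at least 1 probe set. The called probe sets of Spry2 and Spry4 fell 2.83-fold to 3.39-fold, and those of Spry1, Spred1 and Spred2 1.72-fold to 2.68-fold. Of the 17 probe sets, 9 were called lower and 0 higher, while 2.08% of all tested probe sets were called lower and 2.34% higher. The median log2 difference of the 17 was -0.80, and that of all tested probe sets was 0.06. When the factors were returned, Spry4 was called higher than withdrawal at every time tested, at 2 h by 1 of its 4 probe sets. Spred1 was called higher at 4 h and 8 h by 1 probe set, and Spry1, Spry2, Spred2 and Spred3 at no time. A call for 1 gene and none for another is not a test of the difference between them.

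**Figure D1:**
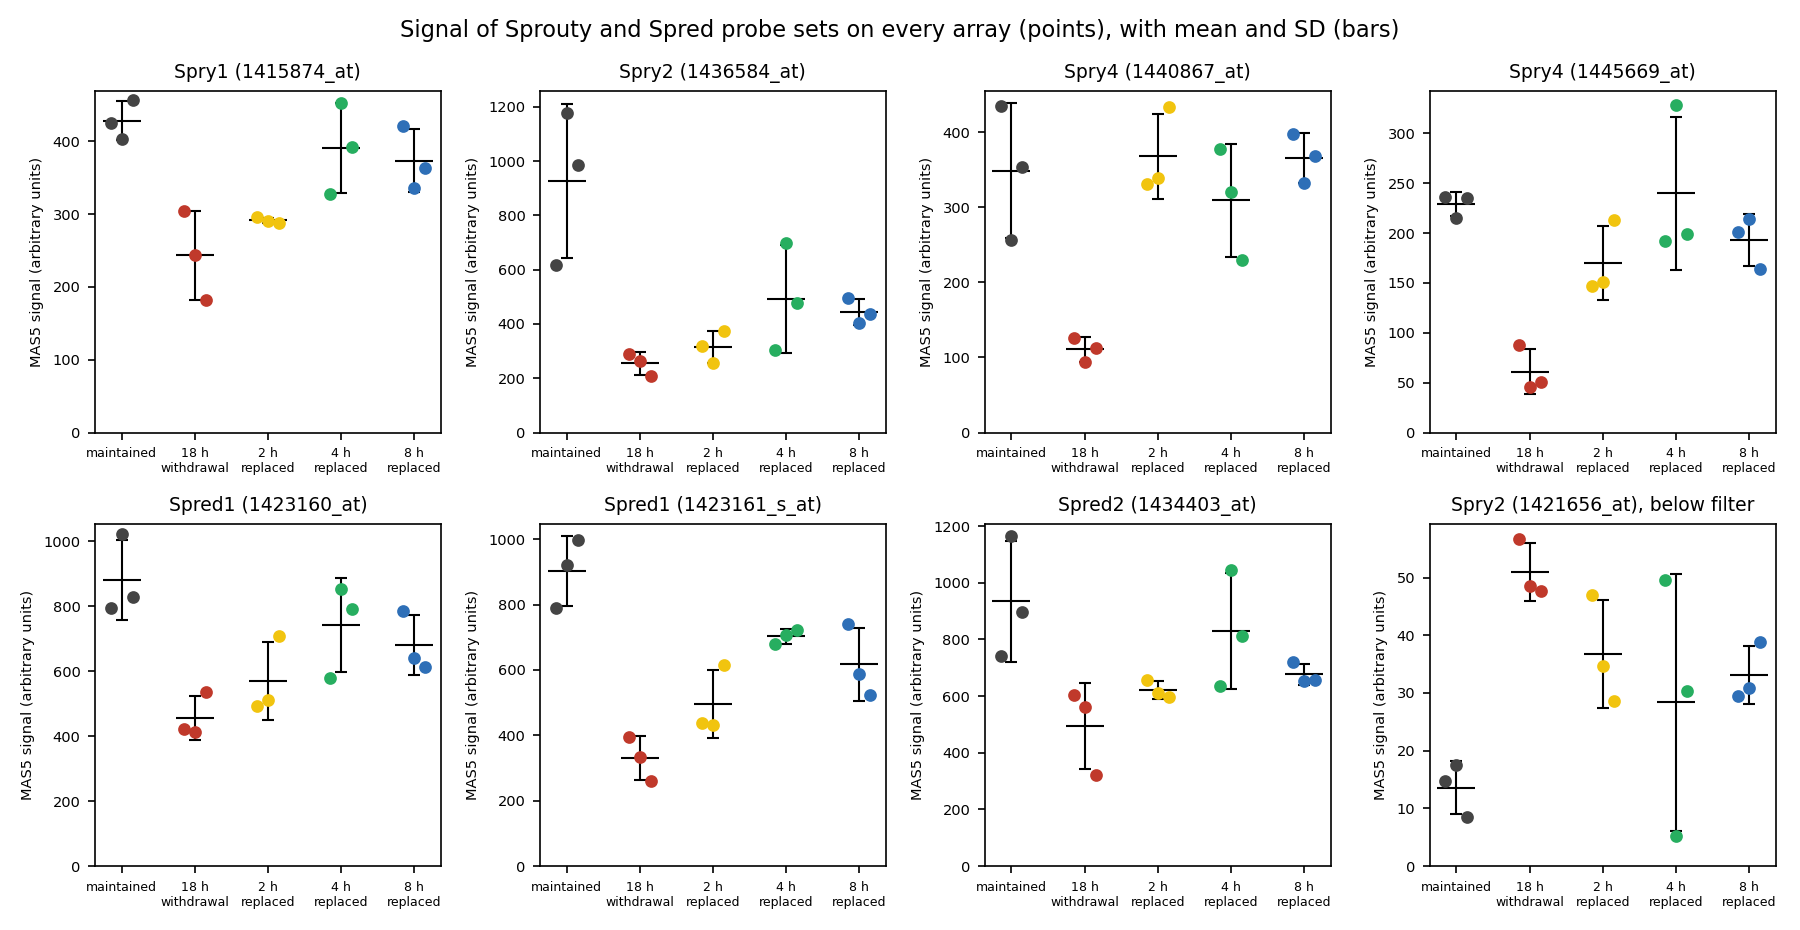
MAS5 signal (arbitrary units, vertical axis from 0) of 8 Sprouty and Spred probe sets in each of the 15 arrays, by group from maintained through 18 h of withdrawal to 2, 4 and 8 h of replacement; points are arrays and bars are the mean with its SD (n = 3). The withdrawal arrays of Spry4 1440867_at lie between 93.6 and 125.6 and every other array at 229.4 or above, while the dim Spry2 probe set 1421656_at runs the other way from the bright one.

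Spry4, whose transcript is widely used as a readout of FGF and ERK signalling in mouse embryos, was low on withdrawal and higher again after replacement. Its brightest probe set, 1440867_at, had a signal of 125.6, 93.6 and 113.1 in the 3 withdrawal arrays, against 435.5, 256.2 and 354.1 in the maintained ones. Every withdrawal array was below every maintained array, and the fall was 2.83-fold (log2 -1.502, SE 0.20, adjusted p = 0.000896).

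After 2 h of replacement the same probe set stood at 330.9, 339.7 and 433.2, above all 3 withdrawal arrays and within the range of the maintained ones. That was 3.02-fold higher than withdrawal (log2 1.60, adjusted p = 0.0034), in a comparison in which 11 of the 27022 tested probe sets, or 0.0407%, were called higher. It was the 1 Sprouty or Spred probe set of 17 called at that time. At 4 h the signal was 377.5, 320.7 and 229.4, a 2.53-fold rise over withdrawal (adjusted p = 0.00995). At 8 h it was 397.5, 331.8 and 368, a 3.02-fold rise (adjusted p = 0.0023). No array of these 3 groups overlapped the withdrawal arrays. The 4 h call was lost without replicate 2 of that group (adjusted p = 0.0528), although the log2 difference moved only from 1.34 to 1.30. Fitted on the 2 groups alone, the 2 h difference of 1.60 had an adjusted p of 0.0991 and the 4 h difference one of 0.186.

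A second probe set for Spry4, 1445669_at, had 87.6, 45.3 and 50.7 in withdrawal arrays, against 236.6, 215.5 and 235.6 in maintained arrays. The groups did not overlap, and the fall was 3.26-fold (log2 -1.71, adjusted p = 0.000793). In the replacement arrays it had 146.9, 151.1 and 212.8 at 2 h, 191.8, 328.4 and 199.5 at 4 h, and 201.5, 214.4 and 164.1 at 8 h. All 9 of these values were above all 3 withdrawal values. At 2 h all 3 were below all 3 maintained values, by 0.41 on the log2 scale, with an interval of -0.89 to 0.06 and an adjusted p of 0.449. The rise was called at 4 h (3.31-fold, adjusted p = 0.00461) and at 8 h (2.77-fold, adjusted p = 0.00785), and at 2 h the log2 difference of 1.29 had an adjusted p of 0.0685. Without withdrawal replicate 1 that 2 h difference was 1.52 with an adjusted p of 0.0213, and without replicate 2 of the 4 h group, which enters through the shared estimate of spread, the adjusted p was 0.0291. On the 2 groups alone, the 4 h and 8 h differences had adjusted p of 0.186 and 0.0838.

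The third, dimmer probe set, 1422021_at, had 49, 45.4 and 11.4 in withdrawal arrays and 229.8, 83.9 and 144.2 in maintained arrays. It fell 3.30-fold (adjusted p = 0.0136) with no overlap. Its signal was 113.7, 142.5 and 106.9 at 2 h, 119, 127.3 and 64.2 at 4 h, and 178.9, 127.4 and 240.3 at 8 h of replacement. The difference from withdrawal was called at 8 h alone (4.03-fold, adjusted p = 0.0169). At 2 h and 4 h its log2 differences of 1.51 and 1.28 had adjusted p of 0.273 and 0.0969. The withdrawal call was lost without maintained replicate 3 (log2 -1.71, adjusted p = 0.0546). The 8 h call was lost without replicate 1 (log2 2.00, adjusted p = 0.0698) or replicate 3 (log2 1.81, adjusted p = 0.0911) of that group, and both calls were lost on the 2 groups alone (adjusted p = 0.115 and 0.102).

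The dimmest probe set for Spry4, 1422020_at, had 12.3, 28.2 and 15.6 in withdrawal arrays and 91.1, 35.4 and 69.2 in maintained arrays. It was not called in any comparison, with a log2 difference of -1.19 on withdrawal (adjusted p = 0.0906) and of 1.27, 1.16 and 1.39 at 2, 4 and 8 h over withdrawal. All 4 probe sets for Spry4 thus had the same signs in these 4 comparisons.

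Set in order, the 5 group means of 1440867_at ran from 111 ± 16.1 in withdrawal cultures (SD, n = 3) up to 309 ± 74.7 at 4 h, 349 ± 89.8 in maintained cultures, 366 ± 32.9 at 8 h and 368 ± 56.7 at 2 h. The step from withdrawal to the next group passed the test, and the 3 steps above it did not (adjusted p = 0.858 to 0.999). Against maintained cultures, 2 h of replacement differed by 0.10 on the log2 scale, with a 95% confidence interval of -0.33 to 0.52, and 8 h by 0.09, with an interval of -0.33 to 0.52.

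Spry2 encodes the Sprouty whose loss in mice leaves enteric neurons oversensitive to GDNF. Its bright probe set, 1436584_at, had 291.1, 263.8 and 210 in withdrawal arrays, against 617.7, 1176 and 984.7 in maintained arrays. The arrays did not overlap and the fall was 3.39-fold (log2 -1.76, SE 0.26, adjusted p = 0.00167).

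At 2 h of replacement Spry2 had 320.2, 255.3 and 372.8, a range that overlapped withdrawal (log2 0.29, adjusted p = 0.825). At 4 h it had 303, 696.9 and 475.8, and at 8 h 496.9, 402.6 and 434.9. Every 4 h and 8 h array was above every withdrawal array, but the differences of 0.84 and 0.77 were not called (adjusted p = 0.129 and 0.196). Leaving out replicate 1 of the 4 h group gave a difference of 1.14 and an adjusted p of 0.0326. Set against maintained cultures instead, Spry2 was called lower at 2 h (2.77-fold, log2 -1.47, adjusted p = 0.0158). At 4 h its difference from maintained cultures was -0.92 (adjusted p = 0.175), and at 8 h it was -0.99, with an interval of -1.55 to -0.43 and an adjusted p of 0.138. The interval of that single difference leaves out 0, and the p adjusted over all probe sets does not pass. All 3 of the 8 h arrays were below all 3 maintained arrays.

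In order, Spry2 stood at 255 ± 41.3 in withdrawal cultures, 316 ± 58.9 at 2 h, 445 ± 47.9 at 8 h, 492 ± 197 at 4 h and 926 ± 284 in maintained cultures (SD, n = 3). No step between neighbours in that order was called (adjusted p = 0.175 to 0.921).

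The other probe set for Spry2, 1421656_at, lay below the filter and was not tested. It had 56.7, 48.6 and 47.6 in withdrawal arrays and 14.8, 17.5 and 8.5 in maintained arrays, and so ran opposite to the bright one with no overlap. In the replacement arrays it had 47, 34.6 and 28.6 at 2 h, 49.5, 5.2 and 30.4 at 4 h, and 29.5, 30.9 and 38.9 at 8 h. Without the filter the withdrawal difference of 1.19 had an adjusted p of 0.0766. The direction given for Spry2 therefore holds for its bright probe set.

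Spry1, the Sprouty that restrains the response to GDNF in the growing kidney, had 1 probe set, 1415874_at. It had 304.5, 244.5 and 181.9 in withdrawal arrays, against 425.3, 403.5 and 456.1 in maintained arrays. All withdrawal arrays were lower, and the fall was 1.74-fold (log2 -0.80, SE 0.17, adjusted p = 0.0130). Withdrawal replicate 3, with the raised beta-actin ratio, was the lowest of the 15 arrays, and without it the difference was -0.62 with an adjusted p of 0.0408. Without maintained replicate 3 the difference was -0.76 with an adjusted p of 0.0623, and on the 2 groups alone the adjusted p was 0.123.

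Spry1 had 295.8, 290 and 288.4 at 2 h of replacement, which overlapped withdrawal, then 327.9, 452.8 and 391.9 at 4 h and 420.9, 336.3 and 363 at 8 h, all above withdrawal. The log2 differences from withdrawal were 0.27 at 2 h (adjusted p = 0.737), 0.66 at 4 h (adjusted p = 0.0682) and 0.61 at 8 h (adjusted p = 0.0991), none of them called. The 4 h difference was called, at an adjusted p of 0.0362, when replicate 1 of that group was left out. From low to high the means were 244 ± 61.3 in withdrawal cultures, 291 ± 3.89 at 2 h, 373 ± 43.2 at 8 h, 391 ± 62.5 at 4 h and 428 ± 26.4 in maintained cultures (SD, n = 3), and no step between neighbours was called. At 8 h the difference from maintained cultures was -0.19 (adjusted p = 0.608), with an interval of -0.55 to 0.16.

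Spred1 encodes the RAS-ERK inhibitor whose loss in humans causes Legius syndrome, a mild relative of neurofibromatosis, and it had 8 probe sets. The brightest, 1423160_at, had 423.6, 411.7 and 535.1 in withdrawal arrays and 794.1, 1022.2 and 827.6 in maintained arrays. It fell 1.90-fold with no overlap (log2 -0.93, SE 0.18, adjusted p = 0.0096). The nearly as bright 1423161_s_at, whose suffix marks oligonucleotides that can match more than 1 transcript, had 395.2, 334.4 and 260.6 in withdrawal arrays and 788, 921.6 and 998.3 in maintained arrays. It fell 2.68-fold (log2 -1.42, adjusted p = 0.000501), the smallest adjusted p of all Sprouty and Spred probe sets in that comparison.

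In the replacement arrays 1423161_s_at had 438.5, 431.5 and 615.2 at 2 h, 679, 706.5 and 722.1 at 4 h, and 741.3, 587 and 523.6 at 8 h. All 9 values exceeded the withdrawal values. Its rise was called at 4 h (2.10-fold, log2 1.07, adjusted p = 0.0147) and at 8 h (1.84-fold, log2 0.88, adjusted p = 0.0282), but not at 2 h (log2 0.56, adjusted p = 0.531). At 2 h it was still called lower than maintained cultures (1.81-fold, log2 -0.86, adjusted p = 0.0313). The 4 h call was lost without replicate 2 or 3 of that group (adjusted p = 0.0740 and 0.0575). The 8 h call was lost without any 1 of the 8 h arrays, or without withdrawal replicate 2 or 3, with differences of 0.72 to 0.98 and adjusted p of 0.0558 to 0.132. On the 2 groups alone both were lost (adjusted p = 0.201 at 4 h and 0.153 at 8 h), and with arrays shifted to 1 median so was the 8 h call (adjusted p = 0.0667).

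Probe set 1423160_at had 493.3, 510.8 and 709.2 at 2 h, 579, 854.1 and 793.4 at 4 h, and 785.1, 640.7 and 614.5 at 8 h of replacement. At 4 h and 8 h all arrays were above withdrawal, yet its log2 differences of 0.30, 0.67 and 0.56 at 2, 4 and 8 h were not called (adjusted p = 0.728, 0.0848 and 0.171). Without replicate 1 of the 4 h group the 4 h difference was 0.84 with an adjusted p of 0.0326. Its fall on withdrawal was lost without maintained replicate 2 (log2 -0.82, adjusted p = 0.0504) and on the 2 groups alone (adjusted p = 0.0580). Its group means in order were 457 ± 68.1 in withdrawal cultures, 571 ± 120 at 2 h, 680 ± 91.9 at 8 h, 742 ± 145 at 4 h and 881 ± 123 in maintained cultures (SD, n = 3), with no neighbouring step called.

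The third Spred1 probe set, 1428777_at, was dim, at 40.1, 42.7 and 19.6 in withdrawal arrays and 80.2, 67.1 and 58.3 in maintained arrays. It fell 1.72-fold (adjusted p = 0.0351), a call that was lost without any 1 of the maintained arrays, without withdrawal replicate 3 or without replicate 1 of the 8 h group, with differences of -0.55 to -0.87 and adjusted p of 0.0501 to 0.117. It was also lost with no filter (adjusted p = 0.0707) and on the 2 groups alone (adjusted p = 0.209). At 2, 4 and 8 h of replacement it had means of 69.4 ± 6.73, 72.3 ± 7.26 and 66.7 ± 3.02, against 34.1 ± 12.7 in withdrawal cultures (SD, n = 3), and the differences of 0.80, 0.85 and 0.76 were not called (adjusted p = 0.317, 0.0553 and 0.0825).

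The other Spred1 probe sets gave no call. On withdrawal 1423162_s_at, 1443652_x_at, 1452911_at and 1460116_s_at differed by -0.31, 0.03, 0.14 and -0.33 on the log2 scale, with signals of 31.2 to 145.3 over all arrays. The last, 1445228_at, lay below the filter at 0.8 to 11.7. Of the 7 tested Spred1 probe sets, 3 were called lower on withdrawal, so the fall was not seen by every probe set that carries the name of the gene.

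Spred2, the family member that also binds neurofibromin and is broadly expressed in mice, had 5 probe sets. The bright 1434403_at had 602.3, 561.4 and 321.3 in withdrawal arrays, against 741, 1165.6 and 897.4 in maintained arrays. The groups did not overlap, and the fall was 1.89-fold (log2 -0.92, SE 0.22, adjusted p = 0.0287). Withdrawal replicate 3 was again the lowest of the 15 arrays. Without it the difference was -0.65 with an adjusted p of 0.0887, and without maintained replicate 2 or 3 it was -0.75 or -0.94 with an adjusted p of 0.126 or 0.0814. On the 2 groups alone the adjusted p was 0.170. Withdrawal replicate 3 was also the lowest array for Spry2 1436584_at, Spred1 1423161_s_at, Spred1 1428777_at and Spry4 1422021_at. It was not the lowest for Spry4 1440867_at, Spry4 1445669_at or Spred1 1423160_at. Without it the withdrawal call of Spred1 1428777_at was lost, and those of Spry2 1436584_at, Spred1 1423161_s_at and Spry4 1422021_at were kept.

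At 2 h of replacement Spred2 had 658, 611.5 and 596.5, at 4 h 634.6, 1044.3 and 812.4, and at 8 h 721, 651.8 and 656.7. The 4 h and 8 h arrays were all above withdrawal. The log2 differences of 0.37, 0.75 and 0.49 had adjusted p of 0.733, 0.112 and 0.370 and were not called. In order the means were 495 ± 152 in withdrawal cultures, 622 ± 32.1 at 2 h, 677 ± 38.6 at 8 h, 830 ± 205 at 4 h and 935 ± 215 in maintained cultures (SD, n = 3), with no neighbouring step called. Its dim probe sets 1436892_at and 1441415_at differed by 0.22 and -0.29 on withdrawal and were not called, and 1423001_at and 1441802_at lay below the filter at 3.4 to 60.8.

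Spred3, a relative that lacks the KIT-binding activity of the other Spred proteins, was dim on its 1 probe set, 1435852_at. It had 27.7, 7.3 and 40 in withdrawal arrays and 59.9, 41.9 and 29.8 in maintained arrays. These overlapped, and the difference of -0.61 was not called (adjusted p = 0.361). It had 10.4, 20.2 and 38.8 at 2 h, 54.2, 47.7 and 42.5 at 4 h, and 19.5, 38.4 and 55.5 at 8 h of replacement, none called against withdrawal. Its arrays at 4 h were all above withdrawal, with a difference of 0.73 and an adjusted p of 0.312.

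The probe set of Spry3, 1438073_at, stayed below the filter in all groups. It had 1.9, 0.7 and 1.3 in withdrawal arrays, and in replacement arrays 8.3, 2 and 1.5 at 2 h, 2.3, 2.6 and 1.5 at 4 h and 2.7, 7.5 and 5.2 at 8 h. The maintained arrays had 1, 16.9 and 2. A signal this low does not show whether the transcript is present.

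**Figure D2:**
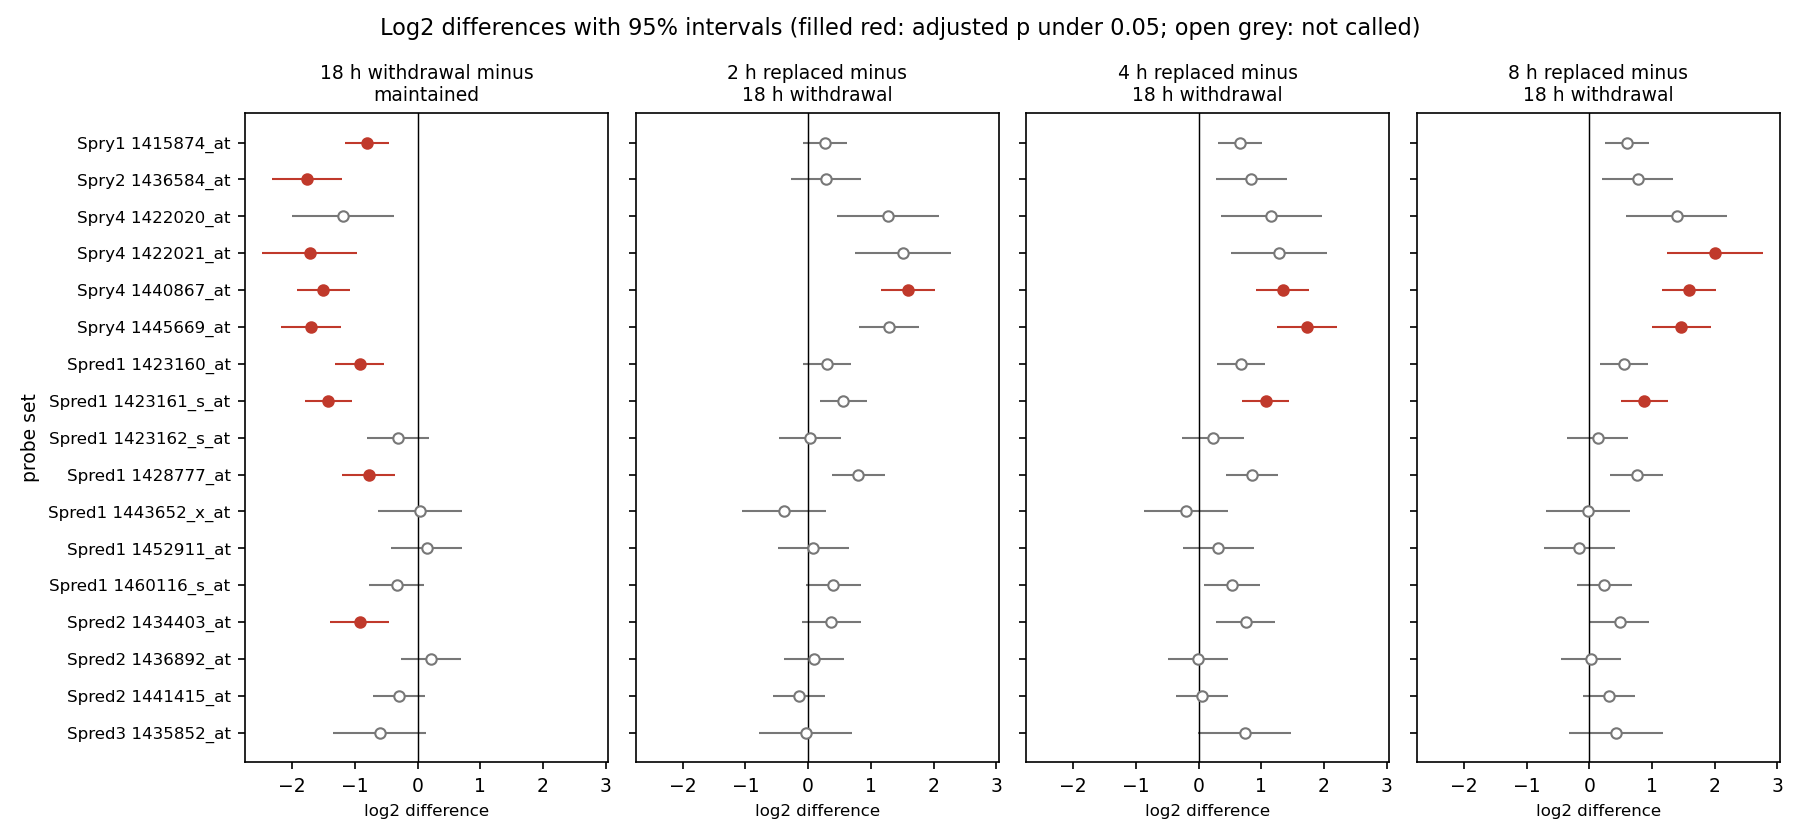
Log2 difference (horizontal axis, of signal plus 16) with its 95% confidence interval for the 17 tested Sprouty and Spred probe sets in 4 comparisons; filled red points were called at an adjusted p under 0.05 over 27022 probe sets. On withdrawal 9 points are called, all below 0, and at 2, 4 and 8 h of replacement 1, 3 and 4 are called, all above 0.

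By counts over the 17 tested probe sets, 12 had all withdrawal arrays below all maintained arrays, while 8.91% of all tested probe sets did. Against withdrawal, 1 was called higher at 2 h, 3 at 4 h, where the share of all probe sets was 0.614%, and 4 at 8 h, where it was 0.529%. None was called lower at these times, where 0%, 0.263% and 0.5% of all probe sets were. All replacement arrays were above all withdrawal arrays for 6 at 2 h, 13 at 4 h and 11 at 8 h, and the shares of all tested probe sets were 5.45%, 7.69% and 9.27%. The median log2 differences of the 17 were 0.30, 0.73 and 0.56 at 2, 4 and 8 h, against -0.03, -0.05 and 0.02 over all tested probe sets. The withdrawal arrays enter each of these comparisons, so a low withdrawal group raises all of them together. Some of the 17 report the same transcript and are not independent.

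Compared with maintained cultures, 2 probe sets were called lower at 2 h of replacement, Spry2 1436584_at and Spred1 1423161_s_at, where 0.503% of all tested probe sets were called lower and 1.06% in either direction. That count was 0 without maintained replicate 2 or 3, or without replicate 1 or 2 of the 2 h group. At 4 h and 8 h none of the 17 was called in either direction in limma, against 0.359% and 0.192% of all probe sets, and 1 and 2 of the 17 had an unadjusted p under 0.05. All replacement arrays were below all maintained arrays for 7 of the 17 at 2 h, 1 at 4 h and 5 at 8 h. The shares of all tested probe sets were 9.39%, 6.57% and 8.81%. For 0 of the 17 were they all above, where 11.3%, 8.8% and 14.4% of all probe sets were. Between replacement times none was called: 0.829% of all probe sets were for 4 h minus 2 h, 0% for 8 h minus 4 h and 0.807% for 8 h minus 2 h. Of the 17, 3, 0 and 1 had an unadjusted p under 0.05 in these.

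**Figure D3:**
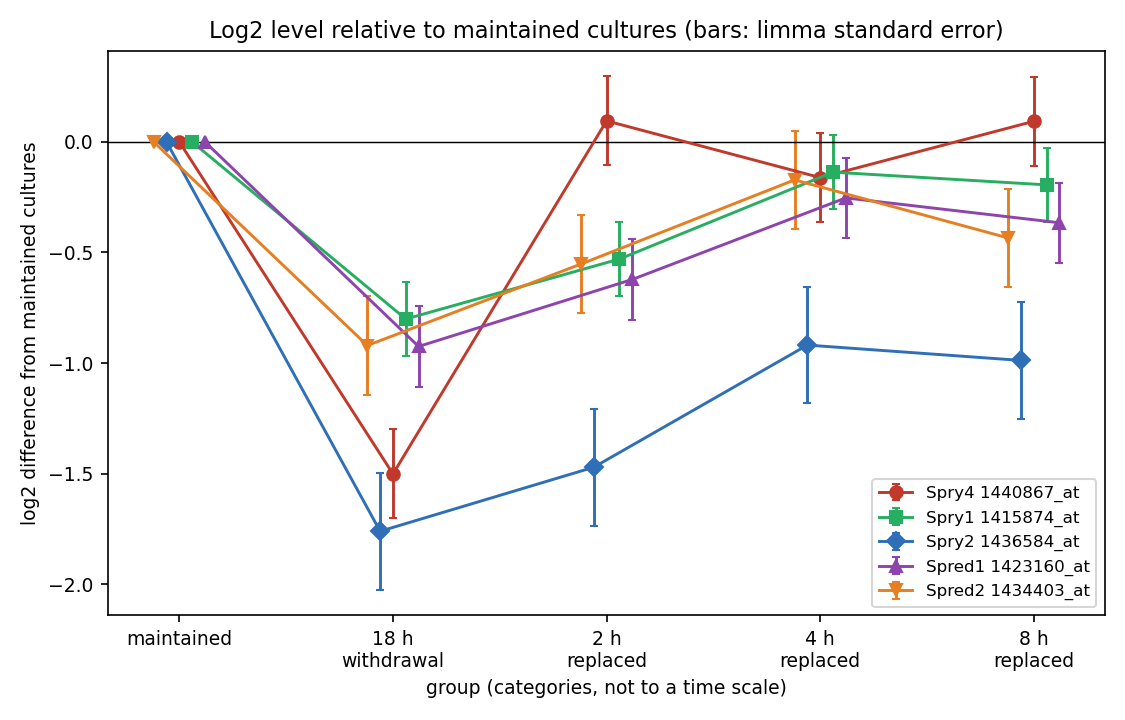
Log2 difference from maintained cultures (vertical axis, of signal plus 16, with the limma SE) for the brightest probe set of Spry1, Spry2, Spry4, Spred1 and Spred2 at 18 h of withdrawal and after 2, 4 and 8 h of replacement. Spry4 is at -1.502 on withdrawal and 0.10 at 2 h, while Spry2 is at -1.76 and -1.47.

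As a share of the fall on withdrawal, measured on the log2 scale, Spry4 1440867_at had regained 106% at 2 h, 89.2% at 4 h and 106% at 8 h. Over fits that each left out 1 array, the 2 h share ran from 94.1% to 120%. Probe sets 1445669_at and 1422021_at of Spry4 had regained 75.8% and 87.6% at 2 h. Spry2 had regained 16.4% at 2 h, from 9.55% without replicate 3 to 24.3% without replicate 2 of the 2 h group. It was at 47.8% at 4 h, 31.8% without replicate 2 of that group, and at 43.9% at 8 h. Spry1 had regained 33.9% at 2 h, 82.9% at 4 h and 75.7% at 8 h. Its 2 h share was 14.4% without withdrawal replicate 3 and 45.2% without withdrawal replicate 1. Spred1 1423160_at had regained 32.8%, 72.6% and 60.5%, and Spred2 40.01%, 81.3% and 52.8%, at 2, 4 and 8 h. At 2 h the share of Spred1 was 15.3% without replicate 3 of that group and at most 42.8% with another array left out. Without withdrawal replicate 3 Spred2 was at 14.5% at 2 h and 32.7% at 8 h, and leaving out other arrays gave at most 49.0% and 64.7%. The dim Spred1 1428777_at was at 103% at 2 h, apart from the bright Spred1 probe sets.

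The difference between Spry4 and each other member was then tested array by array, on the log2 ratio of their brightest probe sets, with a two-sided exact permutation test. There were 16 such tests, 4 members in 4 comparisons, and 3 arrays against 3 cannot give a p below 0.1. At 2 h over withdrawal the change of Spry4 exceeded that of Spry2 by 1.31, of Spry1 by 1.33, of Spred1 by 1.29 and of Spred2 by 1.23 on the log2 scale, with no overlap of arrays and an exact p of 0.1 for each (0.2 adjusted). At 8 h the excess was 0.82, 0.99, 1.04 and 1.11 for Spry2, Spry1, Spred1 and Spred2, again with no overlap and an exact p of 0.1 (0.2 adjusted). At 4 h the excess of 0.50 to 0.68 overlapped (exact p = 0.2 to 0.4). On withdrawal the change of Spry4 differed from those of Spry2, Spry1, Spred1 and Spred2 by 0.26, -0.70, -0.58 and -0.58, with overlap (exact p = 0.2 to 0.7).

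**Figure D4:**
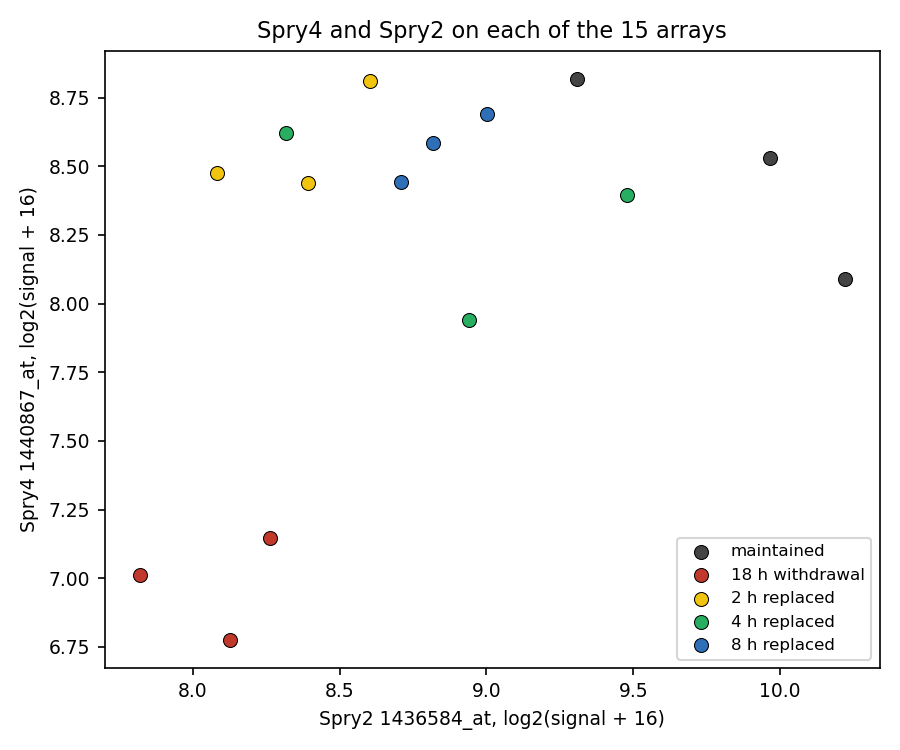
Log2 of signal plus 16 of Spry4 1440867_at against Spry2 1436584_at in the 15 arrays, coloured by group. The 2 h arrays lie at the height of the maintained ones for Spry4 but next to the withdrawal arrays for Spry2.

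Among the 5 genes called on withdrawal, correlations over all 15 arrays were lower with Spry4 than between the other 4. Over the 15 arrays, which share the 5 groups, Pearson's r of log2 values was 0.84 for Spry1 with Spry2, 0.87 for Spred2 with Spry2, 0.89 for Spred2 with Spry1, 0.88 for Spred1 with Spry2, 0.75 for Spred1 with Spry1 and 0.72 for Spred1 with Spred2. With Spry4 it was 0.43 for Spry2, 0.63 for Spry1, 0.56 for Spred1 and 0.45 for Spred2. Within groups, after the group means were taken off, r was 0.81 for Spred2 with Spry2 and 0.76 for Spred2 with Spry1. It was 0.62 for Spred1 with Spry2, 0.59 for Spry1 with Spry2, 0.17 for Spred1 with Spred2 and 0.05 for Spred1 with Spry1. With Spry4 it was -0.34 for Spry2, 0.08 for Spry1, -0.15 for Spred1 and -0.41 for Spred2. Within groups the values with Spry4 were thus not all below those between the other members. Replicate 2 of the maintained group and replicate 2 of the 4 h group had the highest signal of their groups for both Spry2 and Spred2. These values are given as descriptions, with no test.

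Outside the family, the genes whose pattern over the 15 arrays was most like that of Spry4, among 12347 candidates, were Dusp6 (r = 0.94), a phosphatase that inactivates ERK, Etv5 (r = 0.94) and Etv4 (r = 0.94), which encode ETS transcription factors. For Spry2 they were Rab5if (r = 0.96), Atp2a2 (r = 0.96), the calcium pump of the endoplasmic reticulum, and Pnp (r = 0.95), a purine nucleoside phosphorylase. For Spry1 they were Med14 (r = 0.98), a Mediator subunit, Ppfibp1 (r = 0.94) and Cdc14b (r = 0.93). For Spred1 they were Slc25a4, Afp and Pomp, each at r = 0.93. For Spred2 they were Rab9, Hprt and Rheb, each at r = 0.96.

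The remaining genes of the pathway was read from lists of genes, each gene by its brightest probe set. Most tested ERK target transcripts, among them the ETS genes Etv4 and Etv5, the early growth response genes Egr1 and Egr2 and other immediate-early genes, fell on withdrawal. Of 16 listed, 15 were tested, all but Etv1, and 12 were called lower on withdrawal and 0 higher, with a median log2 difference of -0.98, against 2.79% of all genes called lower and a median of 0.06. Egr2 (-2.32), Etv4 (-2.25), Epha2 (-1.99) and Myc (-1.61) had the largest log2 falls. The 3 not called were Egr3 (0.01, adjusted p = 0.987), Epha4 (0.33, adjusted p = 0.528) and Ccnd1 (-0.37, adjusted p = 0.279). At 2 h of replacement 6 were called higher, where 0.0688% of all genes were, among them Etv4 (2.20), Egr2 (1.88), Egr1 (1.73) and Fos (1.33). At 4 h 11 and at 8 h 10 were called higher, against 0.81% and 0.78% of all genes. None was called lower, against 0%, 0.283% and 0.634% of all genes at 2, 4 and 8 h. The medians at 2, 4 and 8 h were 1.07, 1.04 and 1.00.

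Other feedback inhibitors of receptors and ERK moved in both directions. Of 12 tested, 3 were called lower on withdrawal, where 2.79% of all genes were. These were Dusp6 (-1.66), Il17rd (-0.72), a membrane inhibitor of FGF receptors, and the phosphatase gene Dusp7 (-0.69). Lrig1 (1.18), an inhibitor of receptor tyrosine kinases, and Socs3 (0.52), an inhibitor of cytokine receptors, were called higher, where 2.87% of all genes were. Dusp6 had a signal of 992 ± 152 at 2 h, 925 ± 233 at 4 h and 1216 ± 158 at 8 h, against 338 ± 98.02 in withdrawal cultures (SD, n = 3). It was called higher than withdrawal at 4 h (1.42) and 8 h (1.83), and at 2 h its log2 difference of 1.54 had an adjusted p of 0.0682. Zfp36, whose protein speeds decay of mRNAs, was called higher at 4 h (0.86) and 8 h (0.76). Dusp6 and Zfp36 were the 2 of 12 called higher at these times, where 0.81% and 0.78% of all genes were. Socs3 was called lower at 8 h (-0.76), where 0.634% of all genes were. No gene of the list was called at 2 h.

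Next came the pathway that these inhibitors act on. Of 24 listed receptors, adaptors and kinases from RET to ERK, 18 were tested. Gfra1, the gene of the GDNF co-receptor, was called lower on withdrawal (-0.87) and the adaptor gene Gab1 higher (0.62), where 2.79% of all genes were called lower and 2.87% higher, and Gab1 was called lower at 8 h over withdrawal (-0.59), where 0.634% were. None was called at 2 h or 4 h, and the median differences of the list lay between -0.05 and 0.10. Ret itself had a signal of 623 ± 267 in withdrawal cultures and 629 ± 252 in maintained cultures (SD, n = 3), with an adjusted p of 0.964.

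Of 18 listed partners of the Sprouty and Spred proteins, 17 were tested. Cblb, a ubiquitin ligase related to CBL, was the 1 partner called higher on withdrawal (0.49, adjusted p = 0.0452), where 2.87% of all genes were. No partner was called at 2, 4 or 8 h over withdrawal, where 0.0688%, 0.81% and 0.78% of all genes were called higher. Counts this small are near those shares and are not read as a result about the core or the partners. The neurofibromin gene Nf1 had a signal of 132 ± 11.2 in withdrawal cultures and 146 ± 13.4 in maintained cultures (SD, n = 3; adjusted p = 0.684), Cbl 490 ± 76.7 and 552 ± 78.7 (adjusted p = 0.520), and the receptor gene Kit 160 ± 8.71 and 149 ± 28.6 (adjusted p = 0.766).

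**Figure D5:**
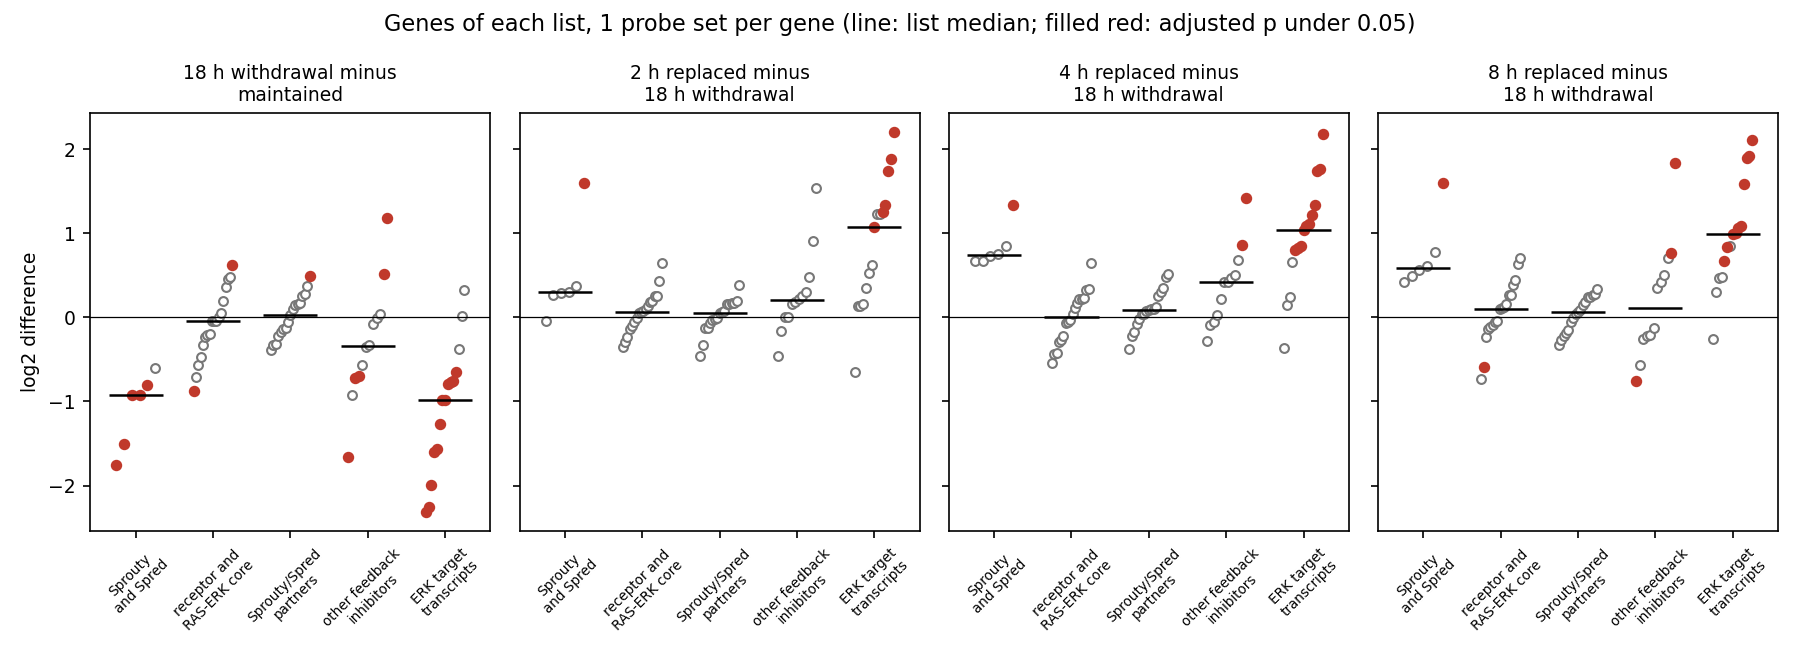
Log2 difference (of signal plus 16) of each tested gene, 1 probe set per gene, for the Sprouty and Spred genes, ERK targets, other feedback inhibitors, the RET-RAS-ERK core and the partners, in the 4 comparisons of withdrawal with maintained and of 2, 4 and 8 h of replacement with withdrawal. ERK targets lie mostly below 0 on withdrawal (median -0.98) and above 0 afterwards, and the core and partner lists lie around 0.

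Markers of other cells that such cultures could hold were read beside these results. Of 12 fibroblast markers 11 were tested, and the dim one was Lum. The summed signal of all 12 was 5792 to 8719 in withdrawal arrays, against 5232 to 7268 in maintained arrays. None of the 11 was called in that comparison. In replacement arrays the sum was 3863 to 6547 at 2 h, 9865 to 11922 at 4 h and 9794 to 12074 at 8 h. All 11 had a log2 difference from withdrawal below 0 at 2 h (median -0.35) and above 0 at 4 h (median 0.82) and at 8 h (median 0.56). Col3a1 (1.19) and Col5a1 (0.69) were called higher at 4 h and Postn (1.07) at 8 h, or 2 and 1 of 11, where 0.81% and 0.78% of all genes were. The Sprouty and Spred calls at 4 h and 8 h thus stand beside higher fibroblast markers, and the Spry4 call at 2 h beside lower ones, none of which was called there. With the fibroblast markers as a covariate, a fit added after seeing the data, Spry4 1440867_at kept its calls at 2, 4 and 8 h (log2 1.55, 1.42 and 1.67, adjusted p = 0.0420, 0.0481 and 0.0256). The marker sums at 4 h and 8 h did not overlap those of withdrawal. At these times the fit therefore cannot tell the markers apart from the group, and no conclusion on fibroblasts is drawn from it. In that fit Spred2 1434403_at was called higher at 4 h (log2 1.29, adjusted p = 0.0481), and the members' calls in all were 9 lower on withdrawal and 1, 4 and 4 higher at 2, 4 and 8 h. 

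The 8 Sertoli cell markers, with Amh dim, summed to 530 to 589 in withdrawal arrays, 429 to 526 at 2 h, 449 to 539 at 4 h and 589 to 645 at 8 h of replacement, and 393 to 509 in maintained arrays. None was called in the 4 comparisons. Of 6 Leydig and peritubular markers 3 were tested, with Hsd3b1 and Myh11 dim. The 5 on the array, dim ones included, summed to 434 to 490 in withdrawal arrays, 332 to 481 at 2 h, 513 to 681 at 4 h and 569 to 733 at 8 h, and 387 to 491 in maintained arrays. Cyp11a1, a gene of steroid synthesis, was called higher at 8 h over withdrawal (log2 1.30, adjusted p = 0.0461). Of 6 endothelial and blood markers 3 were tested, with Pecam1, Tek and Ptprc dim. All 6, dim ones included, summed to 374 to 463 in withdrawal arrays, 267 to 449 at 2 h, 421 to 526 at 4 h and 487 to 510 at 8 h, and 331 to 428 in maintained arrays. None of the 3 tested was called. The 8 h arrays were thus above the withdrawal arrays in the sums of all 4 lists, and the 4 h arrays in those of the fibroblast and the Leydig and peritubular lists. The part of the last 3 lists in the results at 4 h and 8 h was not tested.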

How the data were processed

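Total RNA of mouse spermatogonial stem cell cultures was read on 15 single-colour arrays, 1 per sample, grouped by the labels. The deposited values are linear intensities, made by the authors with MAS5, per the submitters' processing notes. The version is not given in the sources used here. Judged by the values, each array had been scaled to 1 trimmed mean. All samples were used, and no member value was 0.

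Gene names came from the platform annotation, which gave 34958 probe sets 1 gene symbol, 932 several and 9211 none. The 64 control probe sets were left out, as were the dimmest 40% of the rest by mean log2 of signal plus 16 over all arrays (under a signal of about 30.5). This kept 27022 probe sets and 13083 genes with 1 symbol. The 5 group means were fitted together with limma 3.58.1 in R 4.3.3 (eBayes with a variance trend, 10 residual degrees of freedom), two-sided, with Benjamini-Hochberg adjustment over 27022. The limma fit alone was tested on simulated data.

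The members and gene lists were chosen with earlier results of these data known. Every member probe set is described. Like patterns are the 3 genes with the highest Pearson's r, and up to 4 called genes of largest difference are named from a list, with a few others chosen after their values were seen. The lists took other genes of the pathway, partners of the proteins, and cell type markers. Between same-numbered arrays, r of the deviations from the group means was -0.23 to 0.45. It was over 0.1 in 5, 2 and 2 of 10 pairs for replicates 1, 2 and 3. Differently numbered arrays were not set beside these, so whether the numbers mark pairs is not settled. The fit reported does not use them as pairs.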

Additional observations from a re-analysis of the deposited data

How the results depend on the processing

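No call of a Sprouty or Spred probe set turned its direction under any alternative run. Called on withdrawal were 9 of 17 in the fit reported, 5 of 6 with 1 probe set per gene and 4 with only the 2 groups compared in the fit, which leaves fewer arrays to estimate the spread. At 2 h over withdrawal 1 became 2 with array weights and 0 with only the 2 groups. At 4 h 3 became 5 with arrays shifted to 1 median, 8 with array weights and 0 with only the 2 groups. At 8 h 4 became 1 with 1 probe set per gene, 7 with array weights and 1 with only the 2 groups. At 2 h against maintained cultures 2 became 1 with 1 probe set per gene, 1 with no variance trend, 5 with array weights and 1 with only the 2 groups. Array weights gave 2 at 8 h against maintained cultures and 1 at 4 h against 2 h, where the fit reported gave 0. Leaving out each array in turn gave 5 to 10 calls on withdrawal, 1 to 2 at 2 h, 1 to 6 at 4 h and 2 to 4 at 8 h over withdrawal, and 0 to 2 at 2 h against maintained cultures, with 0 to 0 in the other 5 comparisons. The lowest withdrawal count, 5, was without maintained replicate 3. The 4 h count was 1 without replicate 2 of that group and 6 without replicate 1, and the 8 h count was 2 without replicate 1 or 3 of that group. The cause of these shifts was not tested.

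With the replicate number as a block the counts were 9 on withdrawal, 1 at 2 h, 3 at 4 h and 4 at 8 h over withdrawal and 2 at 2 h against maintained cultures, and it changed no call of a member. Under every alternative that tested them, Spry2 1436584_at, Spry4 1440867_at, Spry4 1445669_at and Spred1 1423161_s_at stayed called on withdrawal, and Spry4 1440867_at at 8 h.

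Over all probe sets, 1195 were called on withdrawal, 200 with only the 2 groups and 3610 with array weights. At 2 h over withdrawal 11 became 0 and 71, at 4 h 237 became 4 and 2354, and at 8 h 278 became 8 and 1433, under the same 2 settings. At 4 h the count was also 94 with no filter, 113 with no variance trend and 359 with quantile normalization, which gave 420 at 8 h. The share called higher on withdrawal was 52.9%, and 31.3% with arrays shifted to 1 median. At 4 h 70.0% were higher, 90.4% with that shift and 52.0% with array weights, at 8 h 51.4% and 41.4% with the shift, and at 2 h 100% and 62.0% with array weights. A signal under about 30.5 set the limit of what was tested.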
